A study of Mus musculus with 30 samples.

Results

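The circadian clock genes described here are Per1, Per2, Per3, Cry1, Cry2, Nr1d1, Nr1d2, Dbp, Arntl and Clock. They were taken by name from the gene column of the array files, which gave 10 genes with 15 probes among 39429 distinct probes. Of these, 8 genes with 11 probes passed the filter on dim probes that left 18726 genes in all.

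RNA came from whole blood of male C57BL/6J mice, drawn by cardiac puncture into a stabilising solution. The groups were irradiated and unirradiated p38DKI mice, irradiated and unirradiated p38DN mice, and irradiated and unirradiated p38WT mice. Each held 5 mice with 1 one-colour array per mouse, 30 arrays in all. Irradiated mice had received 7 Gy and were sampled 24 h later, and unirradiated mice had received 0 Gy. The genotypes concern p38, a stress-activated protein kinase, and DKI and DN are the submitters' abbreviations, kept unexpanded here. The age of the mice and the time of day of the blood draw were not given in the sources used here, and the part that time of day played in any difference was not tested.

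The clock is a loop of transcription that runs in nearly every cell. BMAL1, the product of Arntl, pairs with CLOCK and activates genes through E-boxes, among them the Per and Cry genes, Nr1d1, Nr1d2 and Dbp. PER and CRY proteins then block this activation. The nuclear receptors REV-ERB alpha and beta, encoded by Nr1d1 and Nr1d2, repress Arntl through a sequence called the RORE, so that Arntl peaks at the opposite time of day from Nr1d1 and Dbp. DBP is an output factor that binds D-boxes. In blood the loop is known for its part in the daily traffic of leukocytes.

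Because the members act through these short elements, the windows around their start sites were searched in the RefSeq promoter table (GRCm38.p6, 250 bases before to 50 after each start). The table held 13 windows for 9 members and no entry for Per2. The letters searched on both strands were CACGTG for the E-box, TAGGTCA and TGGGTCA for the RORE core, and TTATGTAA and TTACGTAA for the D-box, and no match overlapped another. Among all 32851 windows of that table, the E-box letters occurred in 7.15%, a RORE core in 6.45% and a D-box in 1.06%. Among the members 2 held an E-box (Per1 and Cry1), 1 a RORE core (Arntl) and 1 a D-box (Per3, with 2 matches). These counts are per gene over all its windows, whereas the shares above are per window. Elements outside the windows were not searched. Shown first are the RORE core of Arntl, which the REV-ERBs are known to bind and which begins 31 bases into the transcript (chr7:113207529-113207558, plus strand), and the E-box of Per1, which begins 166 bases before the start (chr11:69098771-69098800, plus strand). The third sequence is the probe that measured Nr1d1, which encodes REV-ERB alpha and was detected only on irradiated arrays (mm9, chr11:98630526-98631028). Its 60 bases spread over 503 bases of the genome, so it spans an intron and reads spliced RNA. Capitals mark the matched element.
Arntl: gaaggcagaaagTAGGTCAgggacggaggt
Per1: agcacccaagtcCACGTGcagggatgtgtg
Nr1d1 probe: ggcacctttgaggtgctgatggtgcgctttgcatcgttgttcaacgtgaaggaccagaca

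All levels below are log2 signals relative to the 75th percentile of the same array, so a negative level lies below that percentile. Levels of different probes cannot be compared. A probe was taken as detected on an array where the scanner software marked it as well above background. The share of probes detected in this sense ran between 39.72 and 63.24% per array. Precision is limited by how many arrays there are. Changes were tested with limma over all 18726 genes with the Benjamini-Hochberg adjustment, and a gene passed where its adjusted p was under 0.05. Every adjusted p below is from that fit unless another is named. Its standard error (SE) pools the spread of all 6 groups. The p38WT arrays were on slides 1 to 3 and the p38DKI arrays on slides 3 to 5, all of 1 scan day. Only slide 3 held both genotypes, with irradiated p38WT and unirradiated p38DKI arrays. The p38DN arrays filled slides 6 to 10 in an earlier scan period.

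Markers of blood cell types moved with irradiation. All 6 B cell markers fell in each genotype, with median log2 changes of -4.05 in p38DKI, -2.37 in p38DN and -4.12 in p38WT. The mean B cell level was between -0.80 and 0.14 in irradiated p38WT mice and between 2.96 and 3.73 in unirradiated p38WT mice. Of 6 neutrophil markers, 4 rose in p38DKI mice, none passed in p38DN mice and 6 rose in p38WT mice. Of 5 erythroid markers, 4 fell in p38DKI (median log2 change -3.46), 3 in p38DN (-3.11) and 3 in p38WT mice (-1.76). Of 5 platelet markers, 2 rose in p38DKI, 5 in p38DN and 5 in p38WT mice. Of 5 NK cell markers, 2 rose in p38DKI, none in p38DN and 5 in p38WT mice. Of 6 T cell markers, 4 fell in p38DKI, 2 fell and 1 rose in p38DN, and 1 fell in p38WT mice. In whole blood, fewer cells of a type and less RNA per cell cannot be told apart, and the part of cell makeup in the changes of clock genes was not tested. The mean level of the leukocyte markers Ptprc and Coro1a was between 2.68 and 5.66. The lowest was p38DKI irradiated array 2, at -2.30 relative to the median array, where T cell and erythroid markers were at -2.40 and -3.55. The 5 irradiated p38DN arrays were between -1.60 and -1.16 in leukocyte markers on that scale. Transcripts typical of liver, 14 of 15 of them measured, were present on some arrays. Their mean stood 9.04 above the median array on p38DKI irradiated array 2, and 7.98, 7.91 and 7.02 above it on p38DN unirradiated arrays 4, 5 and 2. Values without these 4 arrays are given beside the main results that they touch. Leaving them out did not remove all liver RNA. The mean still stood 3.67 above the median array on p38DKI unirradiated array 1 and 3.53 above it on p38DN irradiated array 2. It also differed between whole groups. Its group median was 0.83 in irradiated and -0.91 in unirradiated p38DKI mice. It was 1.13 and 6.36 in irradiated and unirradiated p38DN mice, and -2.37 and -3.41 in the same order in p38WT mice. The median log2 change of the 14 liver transcripts was 2.51 in p38DKI, -3.32 in p38DN and 1.65 in p38WT mice. Only 1 of them passed, as lower in p38DN mice. Heart muscle transcripts stood 6.03 above the median array on p38WT irradiated array 2 and 5.27 above it on p38DN irradiated array 3. On p38WT unirradiated arrays 1 and 3 they stood 4.66 and 3.24 above it. These arrays were kept, and the part of heart muscle RNA in the clock genes was not tested.

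**Figure D1:**
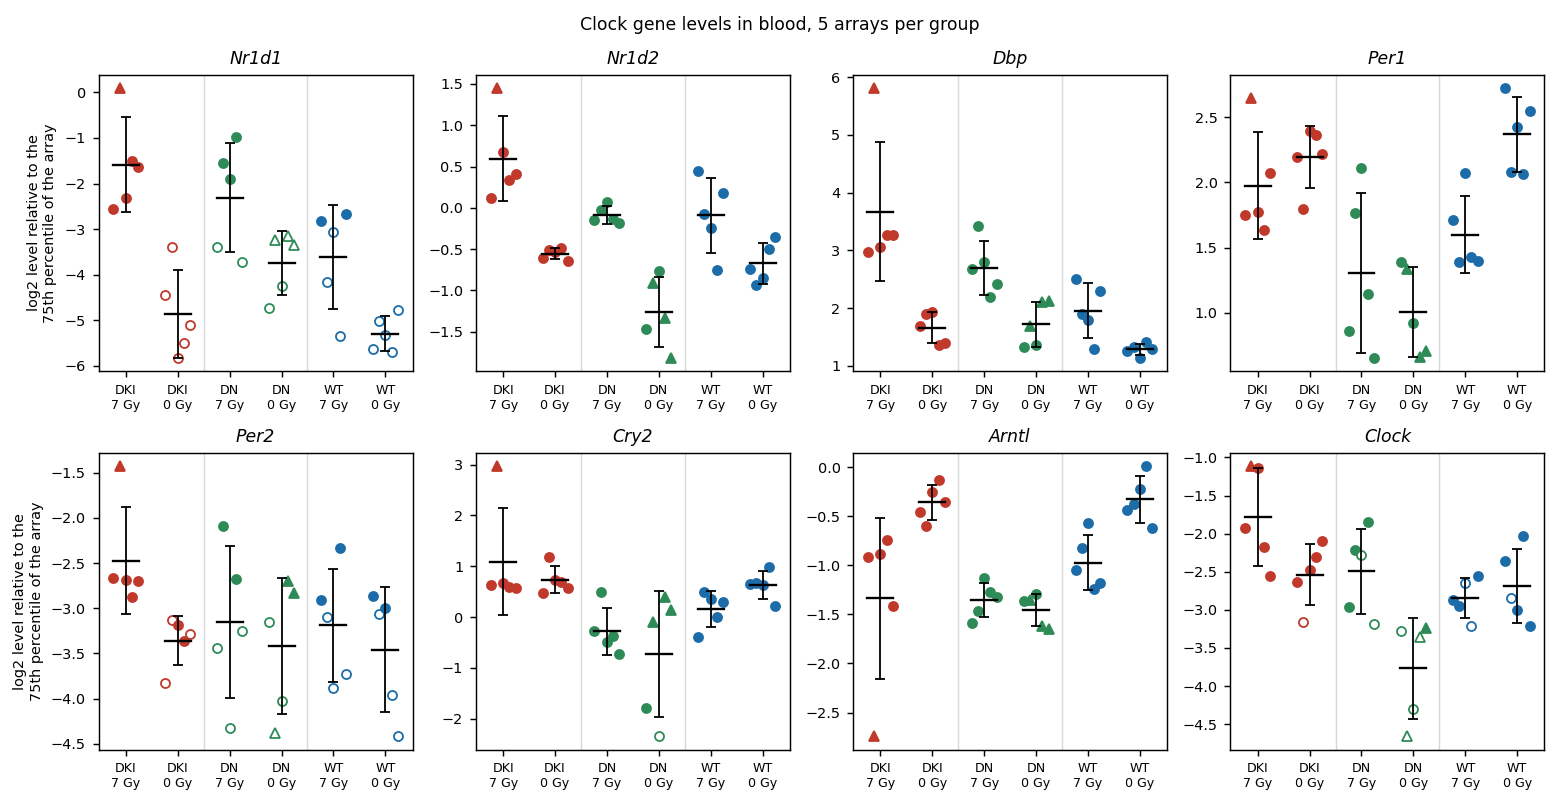
Log2 level of 8 clock genes relative to the 75th percentile of the array, for every array of the 6 groups. Filled points were well above background, open points were not, triangles mark the 4 arrays highest in liver transcripts, and black bars give the mean and SD (n = 5). Nr1d2 and Dbp lie higher in irradiated than in unirradiated p38DKI and p38DN mice, and the triangle of irradiated p38DKI mice stands apart for Dbp at 5.81 and Cry2 at 2.97.

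The first question was how the clock genes of p38DKI mice differed 24 h after 7 Gy. The repressors Nr1d1 and Nr1d2 and the output factor Dbp rose, and the activator Arntl fell. This made 4 of the 8 measured members, 3 higher and 1 lower, against 31.5% of all genes (11.8% higher and 19.6% lower). Over all genes the calls were 2215 higher and 3678 lower, whereas scaling to array medians gave 3792 higher and 1280 lower, and unscaled signals gave 3820 and 759. The median change of the 8 members was 0.82, against -0.26 for all genes tested. Of the 8 members 5 had no overlap between the 5 and 5 arrays, against 19.6% of all genes. Nr1d1 and Per2 passed the filter on dim probes only through irradiated p38DKI mice, so these counts are no support for a pattern. Among the other 6 members 3 passed, 3 had no overlap and the median change was 0.55.

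Nr1d1, which encodes REV-ERB alpha, was at -2.55, 0.10, -2.32, -1.50 and -1.64 in irradiated p38DKI mice, against -4.44, -3.39, -5.82, -5.50 and -5.11 in unirradiated p38DKI mice. It was detected on 5 of 5 irradiated arrays and on 0 of 5 unirradiated ones, and the groups did not overlap. The means were -1.58 ± 1.04 in irradiated and -4.85 ± 0.97 in unirradiated mice (SD, n = 5 each), and the difference of these fitted signals passed (adjusted p = 0.00012). With each unirradiated array set at no less than its dimmest detected probe, Nr1d1 averaged 3.41-fold higher in irradiated mice. This fold is no minimum, since it does not allow for the spread between arrays. Since this gene passed the filter on dim probes only through irradiated p38DKI mice, it had to differ there, and it is no support for a pattern among the members.

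Nr1d2, which encodes REV-ERB beta, was detected on every array with the probe used. It was at 0.11, 1.45, 0.68, 0.34 and 0.40 in irradiated p38DKI mice, against -0.60, -0.51, -0.53, -0.49 and -0.64 in unirradiated p38DKI mice. Every irradiated array was above every unirradiated one, and the unirradiated arrays lay close together. The rise was 2.22-fold (log2 1.15, SE 0.23, adjusted p = 0.000429). A second Nr1d2 probe gave a log2 change of 1.27 (adjusted p = 0.000124 over probes).

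Dbp was at 2.97, 5.81, 3.05, 3.27 and 3.26 in irradiated p38DKI mice, against 1.69, 1.89, 1.94, 1.36 and 1.39 in unirradiated p38DKI mice. All irradiated arrays lay above all unirradiated ones, and irradiated array 2 lay far above the other irradiated arrays. Dbp rose 4.05-fold (log2 2.02, SE 0.37, adjusted p = 0.000185), and without the 4 arrays highest in liver transcripts the log2 change was 1.48 (adjusted p = 3.8e-05). The second Dbp probe changed by 1.92 (adjusted p = 0.00013 over probes).

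Arntl was at -0.92, -2.74, -0.88, -0.74 and -1.41 in irradiated p38DKI mice, against -0.46, -0.60, -0.25, -0.13 and -0.36 in unirradiated p38DKI mice. All 5 irradiated arrays were below all 5 unirradiated ones, with array 2 the lowest. Arntl fell by 0.98 on the log2 scale (SE 0.25, adjusted p = 0.0041), and by 0.63 (adjusted p = 0.00657) without the 4 arrays. Scaled to array medians, which put the median change of all genes at 0.17 and not at -0.26, the Arntl change was -0.55 (adjusted p = 0.1).

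Nr1d1 (adjusted p = 0.000596) and Nr1d2 (log2 change 0.94, adjusted p = 0.000851) also passed without the 4 arrays. Slide and treatment overlapped in part, and slide 4 alone held both treatments of p38DKI, with irradiated array 1 against 3 unirradiated arrays. Within that slide the log2 difference was 0.67 for Nr1d2, 1.41 for Dbp and -0.67 for Arntl. With slide as a fixed block, which rests on that slide, none of these 4 passed, at an adjusted p of 0.0739 for Nr1d1, 0.437 for Nr1d2, 0.342 for Dbp and 0.562 for Arntl. With normexp background correction, which shrinks changes of dim probes, Nr1d1 did not pass (adjusted p = 0.347) and Arntl changed by -0.53 (adjusted p = 0.101).

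The other 4 members did not pass in p38DKI mice with the scaling used. Per2, a paralog of Per1, lay between -2.87 and -1.43 in irradiated mice and between -3.82 and -3.13 in unirradiated mice without overlap, at a log2 difference of 0.89 (adjusted p = 0.0886). It passed the filter only through irradiated p38DKI mice, where it was detected on 5 of 5 arrays, against 2 of 5 in each other group. Per2 passed with array medians, no scaling, quantile normalization and the deposited values (adjusted p between 0.0267 and 0.0384), and without the 4 arrays its difference was 0.63 (adjusted p = 0.221). Clock differed by 0.75 (adjusted p = 0.0757), and passed with array medians, no scaling and the deposited values (adjusted p between 0.0335 and 0.039). Cry2 differed by 0.35 (adjusted p = 0.539) and Per1 by -0.22 (adjusted p = 0.498). The 2 probes of Cry2 differed in sign, the other one being at -0.21.

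In p38DN mice Nr1d2 and Dbp rose after irradiation, and so did Clock, the partner of BMAL1. These were 3 of the 8 members, all of them higher, against 27.9% of all genes (17.3% higher and 10.6% lower). All genes gave 3233 higher and 1993 lower calls, against 2389 and 986 in unscaled signals, and 2641 and 2943 for the percentile over probes detected on all arrays. The members' median change was 0.72, against 0.0012 for all genes tested. For 3 of the 8 members the 5 and 5 arrays did not overlap, against 20% of all genes.

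Nr1d2 was at -0.15, -0.02, 0.08, -0.14 and -0.19 in irradiated p38DN mice, against -1.47, -0.90, -0.77, -1.33 and -1.82 in unirradiated p38DN mice. The groups did not overlap, and the irradiated arrays lay within a narrow band. The rise was 2.26-fold (log2 1.17, SE 0.23, adjusted p = 0.000327), and the second probe gave 1.35 (adjusted p = 5.94e-05 over probes). Leaving out the 4 arrays, 3 of which are unirradiated p38DN arrays, gave 1.04 (adjusted p = 0.00298), with 2 unirradiated arrays left. With normexp background correction it was 0.34 (adjusted p = 0.415).

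Dbp was at 2.68, 3.42, 2.80, 2.19 and 2.41 in irradiated p38DN mice, against 1.32, 1.69, 1.36, 2.10 and 2.12 in unirradiated p38DN mice. All irradiated arrays were higher, though the lowest of them lay just above unirradiated arrays 4 and 5, which are among those high in liver transcripts. The rise was 1.98-fold (log2 0.98, SE 0.37, adjusted p = 0.0447), and 1.36 on the log2 scale without the 4 arrays (adjusted p = 0.00107). The call was lost on leaving out any of unirradiated arrays 1, 2 and 3 or irradiated arrays 1, 2 and 3 (adjusted p between 0.0672 and 0.128), and with array medians (adjusted p = 0.125).

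Clock was at -2.96, -2.21, -2.28, -1.84 and -3.19 in irradiated p38DN mice, against -3.28, -4.66, -4.31, -3.36 and -3.24 in unirradiated p38DN mice. It was detected on 3 of 5 irradiated and 1 of 5 unirradiated arrays, so it was dim throughout. The groups did not overlap, but irradiated array 5 lay close to the top of the unirradiated ones. Clock rose 2.42-fold by the fitted signals (log2 1.27, SE 0.32, adjusted p = 0.00399), and by 1.296 on the log2 scale without the 4 arrays (adjusted p = 0.017). With most unirradiated arrays not above background this size is uncertain, and with normexp background correction the log2 change was 0.07 (adjusted p = 0.987).

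Nr1d1 averaged -2.31 ± 1.19 in irradiated and -3.74 ± 0.71 in unirradiated p38DN mice (SD, n = 5 each), detected on 3 of 5 and 0 of 5 arrays. With each unirradiated array set at no less than its dimmest detected probe, Nr1d1 averaged 1.55-fold higher in irradiated mice. This fold is no minimum, since it does not allow for the spread between arrays. The difference did not pass (adjusted p = 0.0613). Each p38DN slide held 1 irradiated and 1 unirradiated mouse of the same replicate number, scanned on the same day. With slide as a fixed block Nr1d1 passed (adjusted p = 0.0392) and Dbp did not (adjusted p = 0.0807). Within slides, Nr1d2, Dbp and Clock were higher in the irradiated mouse on 5 of 5 slides and Nr1d1 on 4 of 5. An exact two-sided sign-flip permutation test gave p = 0.0625 for Nr1d2, for Dbp and for Clock (n = 5 slides), which is the smallest p that 5 slides allow.

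**Figure D2:**
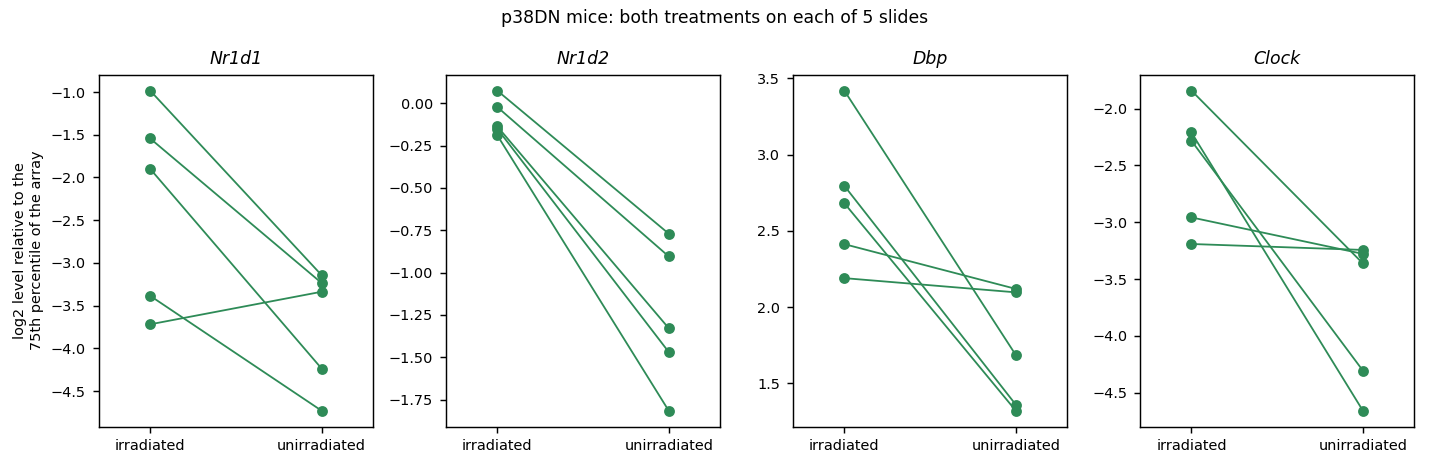
Log2 level relative to the 75th percentile of the array in p38DN mice, with each line joining the irradiated mouse to the unirradiated mouse of the same slide (n = 5 slides). Nr1d2, Dbp and Clock were higher in the irradiated mouse on all 5 slides, by 0.85 to 1.63, 0.09 to 1.74 and 0.05 to 2.45.

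Arntl averaged -1.35 ± 0.18 in irradiated and -1.46 ± 0.17 in unirradiated p38DN mice, a difference of 0.10 with a 95% confidence interval of -0.41 to 0.61 (adjusted p = 0.801). Per1 differed by 0.30 (adjusted p = 0.381) and Per2 by 0.26 (adjusted p = 0.671).

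Cry2, a repressor that binds PER, was at -0.28, 0.50, -0.49, -0.38 and -0.72 in irradiated p38DN mice, against -1.78, -0.09, -2.34, 0.40 and 0.15 in unirradiated p38DN mice. The 3 higher unirradiated arrays (2, 4 and 5) are those with much liver RNA, and the remaining 2 lay below every irradiated array. Of these 2, array 3 did not detect Cry2. Cry2 differed by 0.46 over all arrays (adjusted p = 0.473), by 1.79 without the 4 arrays (adjusted p = 8e-05) and by 1.19 with the level of liver transcripts as a covariate (adjusted p = 0.00424). Its other probe, placed on another transcript, changed by 0.51 (adjusted p = 0.104 over probes). The same gene stood at 2.97 on p38DKI irradiated array 2, against 0.58 to 0.67 on the other irradiated p38DKI arrays.

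**Figure D3:**
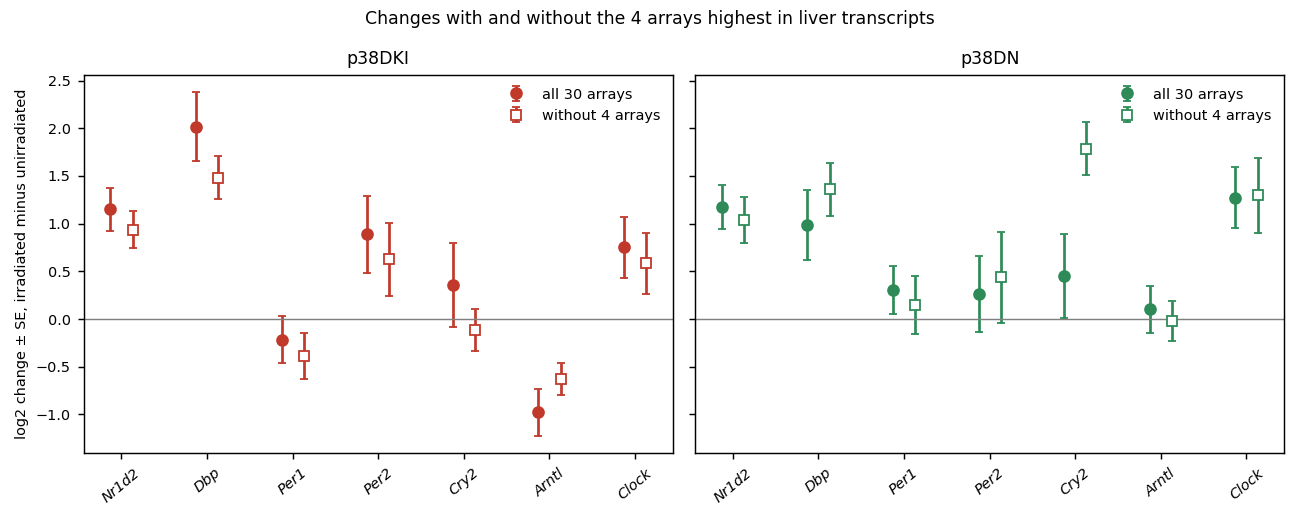
Log2 change ± SE, irradiated minus unirradiated, of 7 clock genes (Nr1d1 not drawn) in p38DKI and p38DN mice over all 30 arrays (filled) and without the 4 arrays highest in liver transcripts (open). Dbp in p38DKI mice was 2.02 over all arrays and 1.48 without them, and Cry2 in p38DN mice was 0.46 over all arrays and 1.79 without them.

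The same comparison in p38WT mice gave fewer calls. Per1, a repressor of the loop, fell, and Nr1d1 passed as higher on signals that were mostly not well above background. These were 2 of the 8 measured members, 1 in each direction, against 27.2% of all genes (14.9% higher and 12.3% lower). For none of the 8 were the 5 and 5 arrays without overlap, against 24.8% of all genes. The calls over all genes were 2793 higher and 2295 lower, against 840 and 3379 in unscaled signals, and 2185 and 3551 for the percentile over probes detected on all arrays. The median change of the members was 0.05, against -0.04 for all genes tested. Without Nr1d1 and Per2, 1 of 6 members passed, and the median was -0.32.

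Per1 was at 1.71, 1.39, 2.07, 1.43 and 1.40 in irradiated p38WT mice, against 2.72, 2.08, 2.43, 2.07 and 2.54 in unirradiated p38WT mice. Irradiated array 3 lay just above the lowest unirradiated array, and the other irradiated arrays were below all unirradiated ones. Per1 fell by 0.77 on the log2 scale (SE 0.25, adjusted p = 0.0213). Without unirradiated array 1 the adjusted p was 0.0625, and scaled to array medians it was 0.112.

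Nr1d1 was at -2.81, -4.16, -3.07, -5.35 and -2.66 in irradiated p38WT mice, against -5.63, -5.02, -5.32, -5.69 and -4.78 in unirradiated p38WT mice. It was detected on 2 of 5 irradiated and 0 of 5 unirradiated arrays, and irradiated array 4 lay among the unirradiated ones. The means were -3.61 ± 1.13 and -5.29 ± 0.39 in irradiated and unirradiated mice (SD, n = 5 each; adjusted p = 0.0291). No fold is given, because the irradiated mean did not exceed the detection limit used for the unirradiated arrays. The call was lost on leaving out any of unirradiated arrays 1 and 4 or irradiated arrays 1, 3 and 5, with adjusted p between 0.0619 and 0.083.

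Nr1d2, Dbp and Arntl did not pass in p38WT mice. Nr1d2 averaged -0.09 ± 0.45 in irradiated and -0.67 ± 0.24 in unirradiated mice, a difference of 0.58 (adjusted p = 0.0566). Dbp averaged 1.95 ± 0.47 in irradiated and 1.28 ± 0.10 in unirradiated mice, a difference of 0.67 (adjusted p = 0.185). For Arntl the means were -0.97 ± 0.28 in irradiated and -0.33 ± 0.24 in unirradiated mice, a difference of -0.64 (adjusted p = 0.0546). None of the 4 arrays with much liver RNA is a p38WT array, yet leaving them out narrowed the pooled spread (the SE of Dbp was 0.21 without them and 0.37 with them), and the adjusted p became 0.0165 for Nr1d2, 0.0166 for Dbp and 0.00297 for Arntl at the same log2 differences. Clock (-0.16), Cry2 (-0.47) and Per2 (0.27) had adjusted p of 0.766, 0.47 and 0.673. Slide 2 alone held both treatments of p38WT, with 3 irradiated arrays against unirradiated array 5. Within it the log2 difference was -0.82 for Per1. With slide as a fixed block the adjusted p was 0.486 for Per1 and 0.598 for Nr1d1.

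**Figure D4:**
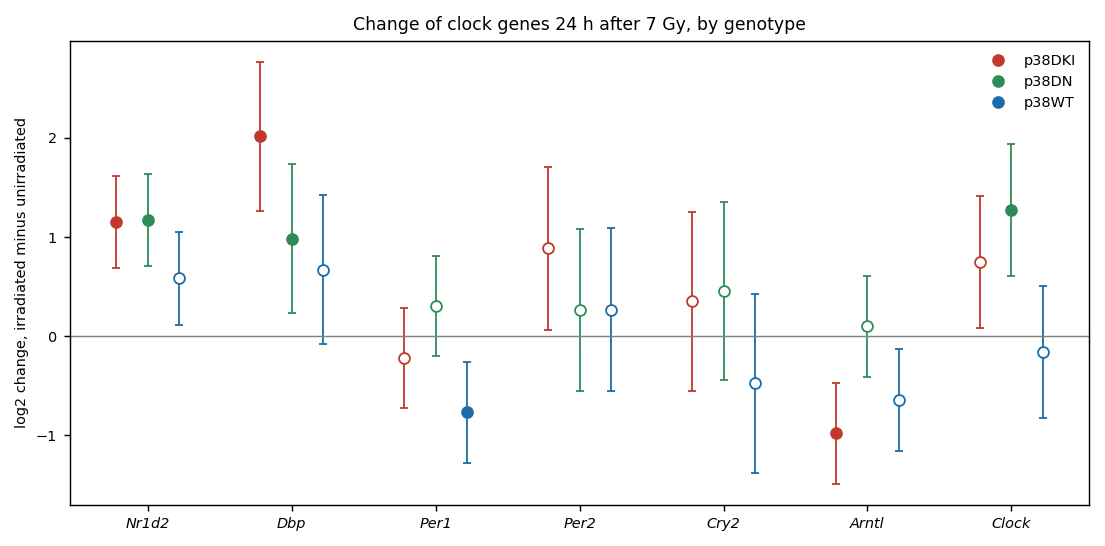
Log2 change of 7 clock genes, irradiated minus unirradiated, within each of the 3 genotypes, with the 95% confidence interval of the limma fit. Filled points passed an adjusted p of 0.05, and Nr1d1 is not drawn because no unirradiated array detected it. Nr1d2 and Dbp passed in p38DKI and p38DN, Arntl in p38DKI, Clock in p38DN and Per1 in p38WT.

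Averaged over the 3 genotypes, 5 of the 8 members passed, 4 higher and 1 lower, against 47.2% of all genes (22.8% higher and 24.4% lower). The calls over all genes were 4270 higher and 4573 lower, against 4889 and 2839 with array medians, and 3564 and 6601 with the percentile over probes detected on all arrays. Nr1d1 passed as higher (adjusted p = 5.77e-06), with no size given because no unirradiated array detected it. It was kept only through irradiated p38DKI mice, a group in this average, so it had to be higher there. Without Nr1d1 and Per2, 4 of 6 members passed, 3 higher and 1 lower. Dbp changed by 1.22, Nr1d2 by 0.97, Clock by 0.62 and Arntl by -0.51, with adjusted p of 2.47e-05, 8.08e-07, 0.0074 and 0.00475. Without the 4 arrays these 5 passed too, with 1.17 for Dbp, 0.85 for Nr1d2, 0.57 for Clock and -0.43 for Arntl, and Cry2 was added (0.40, adjusted p = 0.0182). Per1, Per2 and Cry2 had adjusted p of 0.194, 0.0939 and 0.733.

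The next question was whether the genotypes responded differently, which the difference between irradiation effects tests. None of the 8 members passed for p38DKI minus p38WT, against 0.00534% of all genes, and none for p38DN minus p38WT, against 1.69% of all genes (1.04% higher and 0.646% lower). Over all genes p38DN minus p38WT gave 195 higher and 121 lower calls, against 273 and 13 with no scaling. By limma 1 and 3 of the 8 had an unadjusted p under 0.05. The share of all genes at that unadjusted threshold was not counted, here or below. For p38DKI minus p38WT that was Dbp, at 1.35 with a 95% confidence interval of 0.29 to 2.41 (adjusted p = 0.267). For p38DN minus p38WT these were Clock at 1.43 (0.49 to 2.37, adjusted p = 0.0919), Per1 at 1.07 (0.36 to 1.79, adjusted p = 0.0962) and Arntl at 0.75 (0.03 to 1.47, adjusted p = 0.247). The second Nr1d2 probe was at 0.94 for p38DKI minus p38WT (adjusted p = 0.217 over probes). For p38DN minus p38WT it was at 1.01 (adjusted p = 0.0846 over probes). The intervals are wide, and a gene called in only 1 genotype above is thereby not shown to differ between genotypes. Cry2 passed for p38DN minus p38WT without the 4 arrays (2.26, adjusted p = 0.00288) and with the liver covariate (1.93, adjusted p = 0.0104). Without the 4 arrays only unirradiated p38DN arrays 1 and 3 were left, and Cry2 was not detected on array 3 (-2.34). Over all arrays the other Cry2 probe differed by 0.30 (adjusted p = 0.664 over probes).

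Compared directly, irradiated p38DKI mice had more Dbp than irradiated p38WT mice. Nr1d1 passed as well, but it was kept only through irradiated p38DKI mice and had to differ. These were 2 of the 8 members, both higher, against 4.35% of all genes (1.14% higher and 3.21% lower). Over all genes 213 calls were higher and 602 lower, against 68 and 8 in unscaled signals, and 287 and 371 for the percentile over probes detected on all arrays. For 3 of the 8 members the arrays did not overlap, against 6.53% of all genes. Without Nr1d1 and Per2, 1 of 6 members passed, and 2 did not overlap. Dbp averaged 3.67 ± 1.20 in irradiated p38DKI and 1.95 ± 0.47 in irradiated p38WT mice (SD, n = 5 each), 3.29-fold higher (log2 1.72, SE 0.37, adjusted p = 0.0113). Without the 4 arrays the log2 difference was 1.18 (adjusted p = 0.0126), and the second probe gave 1.70 (adjusted p = 0.00625 over probes). Scaled to array medians Dbp gave an adjusted p of 0.066. With no scaling, with normexp background correction, and with the level of liver transcripts as a covariate, 0 of the 8 members passed. No slide held both groups, with irradiated p38DKI arrays on slides 4 and 5 and irradiated p38WT arrays on slides 2 and 3. With slide as a fixed block 0 of the 8 members passed. Nr1d1 averaged -1.58 ± 1.04 in irradiated p38DKI and -3.61 ± 1.13 in irradiated p38WT mice (adjusted p = 0.0408), with no overlap between the arrays. It was detected on 5 of 5 irradiated p38DKI and 2 of 5 irradiated p38WT arrays. It did not pass without p38DKI irradiated array 2 (adjusted p = 0.144), without the 4 arrays (adjusted p = 0.137), or without irradiated p38DKI array 4 or irradiated p38WT arrays 2, 3 or 4 (adjusted p between 0.0511 and 0.122). Clock at 1.06 (adjusted p = 0.0554) and Nr1d2 at 0.69 (adjusted p = 0.0729) did not pass, though the second Nr1d2 probe did (0.85, adjusted p = 0.03 over probes).

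Among unirradiated mice, 0 of the 8 members passed for p38DKI against p38WT by limma, against 0.101% of all genes (0.0854% higher and 0.016% lower), and 0 had an unadjusted p under 0.05. None was without overlap, against 2.82% of all genes. Over all genes 16 calls were higher and 3 lower, against 6 and 6 with array medians. Apart from Nr1d1, detected on no array of either group, the differences ran between -0.17 for Per1 and 0.37 for Dbp. For Arntl the 95% confidence interval of the difference was -0.54 to 0.48 and for Nr1d2 -0.35 to 0.58. These groups shared no slide either, with unirradiated p38DKI arrays on slides 3 and 4 and unirradiated p38WT arrays on slides 1 and 2.

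Scan batch and genotype cannot be told apart between p38DN and p38WT mice, and the values are given as they stand. In unirradiated mice 6 of 8 members passed, 1 higher and 5 lower, against 54.3% of all genes (18.8% higher and 35.6% lower), and the median of all genes tested was -0.38. For 4 of the 8 the arrays did not overlap, against 44% of all genes. Per1 averaged 1.004 ± 0.34 in unirradiated p38DN and 2.37 ± 0.29 in unirradiated p38WT mice (adjusted p = 4.38e-05), and Arntl -1.46 ± 0.17 and -0.33 ± 0.24 in the same groups (adjusted p = 0.000428). Cry2 differed by -1.36, Clock by -1.08 and Nr1d2 by -0.59, with adjusted p of 0.0109, 0.00639 and 0.0309. The other Cry2 probe differed by -0.56 (adjusted p = 0.0438 over probes). The second Nr1d2 probe did not pass (-0.47, adjusted p = 0.0728 over probes). Nr1d1 passed as well (adjusted p = 0.0236), but it was detected on no array of either group, so no fold is given. Without the 4 arrays, which leaves 2 unirradiated p38DN arrays, 4 of 8 members passed. Per1 then differed by -1.21 (adjusted p = 0.00247), Arntl by -1.001 (adjusted p = 0.000486), Cry2 by -2.69 (adjusted p = 6.78e-08) and Clock by -1.10 (adjusted p = 0.0276). Of the 2 unirradiated p38DN arrays left, array 3 did not detect Cry2. The calls of Nr1d2 (-0.45, adjusted p = 0.146) and Nr1d1 (adjusted p = 0.39) ended. Leaving out p38DN unirradiated array 3 ended the Cry2 call (adjusted p = 0.0513). That of Nr1d1 ended without p38DN unirradiated array 2, 4 or 5 or p38WT unirradiated array 4 (adjusted p between 0.051 and 0.0584), and that of Nr1d2 without p38DN unirradiated array 1, 4 or 5 or p38WT unirradiated array 4 or 5 (adjusted p between 0.0563 and 0.113). In irradiated mice 0 of 8 passed by limma for p38DN against p38WT, against 43% of all genes (16.8% higher and 26.3% lower), and 1 had an unadjusted p under 0.05. None was without overlap, against 29.2% of all genes. With the percentile over probes detected on all arrays the higher and lower calls over all genes were 4522 and 3057 in irradiated mice, against 3141 and 4917 in the scaling used, and 4430 and 4601 in unirradiated mice, against 3513 and 6664.

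Cry1 and Per3 were not measured. The probe of Cry1, a repressor like Cry2, was not well above background on any of 30 arrays, with measured levels between -7.15 and -2.86. The probe of Per3 was detected on 1 of 30 arrays, an irradiated p38DKI array at -2.10. An irradiated p38WT array gave a higher level of -0.89 without being marked as detected.

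From a list of 22 further clock genes, 19 were measured, and Npas2, Ciart and Fbxl21 were not. In p38DKI mice 4 of the 19 passed, 3 higher and 1 lower, against 31.5% of all genes, with a median of 0.10. Tef, a D-box factor related to DBP, averaged 4.61 ± 0.86 in irradiated and 3.15 ± 0.23 in unirradiated p38DKI mice (log2 change 1.46, adjusted p = 0.00147). Nfil3, which competes at D-boxes, rose by 1.26 (adjusted p = 0.00159), and Bhlhe40, a repressor at E-boxes, by 1.24 (adjusted p = 0.00799). Timeless, known in mammals mainly for DNA replication and the checkpoint response, fell by 1.004 (adjusted p = 0.0102). Without the 4 arrays these 4 passed too, with Tef at 1.08 (adjusted p = 0.00124), and 5 of the 19 passed in all.

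In p38DN mice 6 of the 19 passed, all higher, against 27.9% of all genes. Among them were Csnk1d and Csnk1e (0.71 and 1.29, adjusted p = 0.00204 and 0.000808), Fbxw11, which encodes a ubiquitin ligase subunit that acts on PER (1.16, adjusted p = 0.00129), Bhlhe40 (1.20, adjusted p = 0.0105) and the Arntl paralog Arntl2 (1.03, adjusted p = 0.0134). Without the 4 arrays 8 of the 19 passed, 6 higher and 2 lower, and Arntl2 was at 0.06 (adjusted p = 0.893). Tef (1.42, adjusted p = 0.00108) and Nfil3 (1.23, adjusted p = 0.00408) were among those higher, with 2 unirradiated p38DN arrays left. In p38WT mice 3 of the 19 passed, 1 higher and 2 lower, against 27.2% of all genes. Csnk1e, a kinase that marks PER for degradation, rose by 1.09 (adjusted p = 0.0036). Btrc, a ubiquitin ligase subunit that recognises marked PER, fell by 1.504 (adjusted p = 0.00384), and Timeless fell by 1.14 (adjusted p = 0.00433). Without the 4 arrays 5 of the 19 passed in p38WT mice, 3 higher and 2 lower. Tef was among those higher (0.60, adjusted p = 0.0388), and Nfil3 did not pass (0.48, adjusted p = 0.107). The median of the 19 genes was 0.41 in p38DN and 0.35 in p38WT mice. Between irradiated p38DKI and irradiated p38WT mice Tef was higher (1.22, adjusted p = 0.0336) and Csnk1e lower (-1.15, adjusted p = 0.0195). Without the 4 arrays neither passed, at 0.84 (adjusted p = 0.0627) for Tef and -0.87 (adjusted p = 0.0679) for Csnk1e.

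Genes with a pattern most like a member's were sought over the 30 arrays among 18451 genes with a value on every array, by Pearson's r, as a description that shares the groups, slides and scaling of these arrays. The levels most like Dbp were those of Tef (r = 0.943), Zfyve21 (0.852) and Il11ra1 (0.846), and r for Tef was 0.93 over the 26 arrays left without the 4 high in liver transcripts. Levels most like Nr1d1, which was detected on 10 of the 30 arrays, were Fkbp9 (0.904), Rusc2 (0.885) and Saa1 (0.869), and those most like Arntl were Nup93 (0.927), Mcm4 (0.923) and Gpr132 (0.921). After each group's mean was removed, the genes closest to Dbp were Mpnd (0.942), Klhl21 (0.914) and Hyi (0.905), whose r was 0.864, 0.824 and 0.77 over the 26 arrays.

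Whether members varied together from mouse to mouse within groups was tested on deviations from group means, over 28 pairs and 30 arrays. By permutation within groups 2 of 28 pairs passed with p-values adjusted over the 28. Cry2 and Dbp had r = 0.724 (permutation p = 0.00235, adjusted p = 0.0367) and rho = 0.621 (permutation p = 0.00604, adjusted p = 0.0846). For Nr1d1 and Dbp r was 0.607 (permutation p = 0.00262, adjusted p = 0.0367) and rho 0.569 (permutation p = 0.00387, adjusted p = 0.0846). Since Nr1d1 was detected on 10 of the 30 arrays, most of its deviations are of signals not well above background. Without the 2 arrays farthest from the median of the first gene of each pair, r was 0.59 for Cry2 with Dbp and 0.474 for Nr1d1 with Dbp. Over the 20 p38WT and p38DKI arrays r was 0.803 and 0.702 for these pairs, and over the 10 p38DN arrays 0.772 and 0.383.

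Neither pair passed without the 4 arrays high in liver transcripts, where r was 0.317 for Cry2 with Dbp (adjusted p = 0.703) and 0.47 for Nr1d1 with Dbp (adjusted p = 0.513). Dbp and Arntl, which peak at opposite times in the textbook clock, had r = -0.76 (permutation p = 0.023, adjusted p = 0.092) and rho = -0.493 (permutation p = 0.0223, adjusted p = 0.132), and r was -0.144 without the 4 arrays. It was -0.794 over the p38WT and p38DKI arrays and -0.58 over the p38DN arrays. Nr1d2 and Dbp had r = 0.599 (permutation p = 0.0224, adjusted p = 0.092) and 0.584 without the 4 arrays (adjusted p = 0.0487). For this pair r was 0.828 over the p38WT and p38DKI arrays but -0.221 over the p38DN arrays. Without the 2 arrays farthest from the median of Nr1d2 it was 0.287. The other 24 pairs had an adjusted p above 0.05. Scaled to array medians, 18 of 28 pairs passed, so the number of related pairs depended on the scaling.

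**Figure D5:**
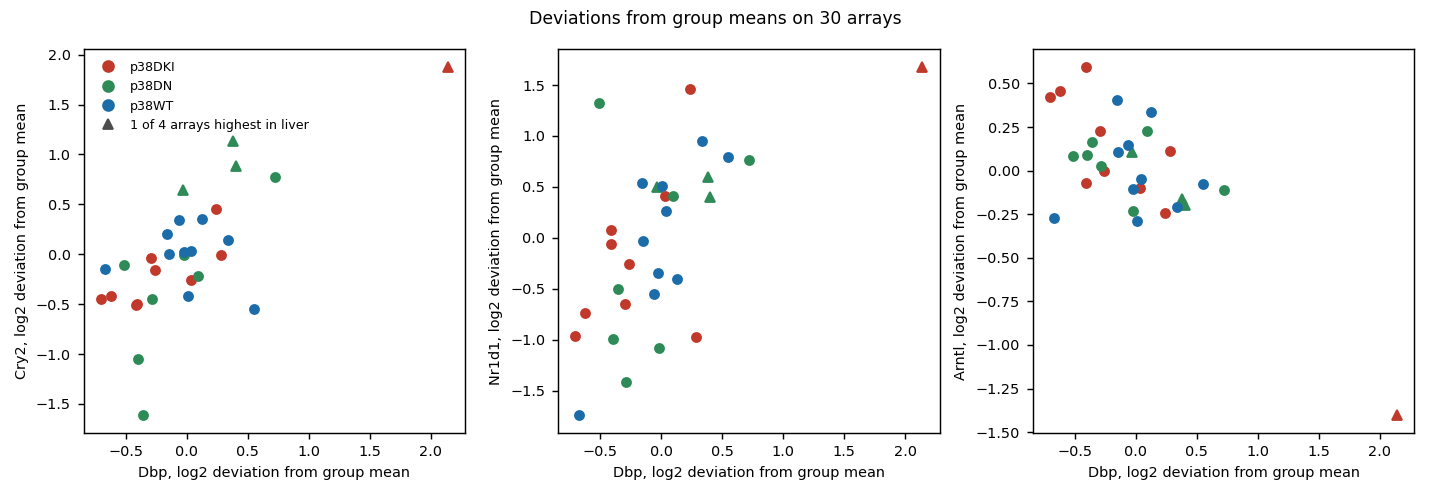
Log2 deviations from the group mean of Cry2, Nr1d1 and Arntl against those of Dbp on 30 arrays, coloured by genotype, with triangles for the 4 arrays highest in liver transcripts. One p38DKI array, irradiated array 2, lies far from the others in all 3 panels, and r over all arrays is 0.724, 0.607 and -0.76.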

How the data were processed

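Whole blood RNA of 30 mice was measured on one-colour Agilent arrays, 5 per group. Per the file headers and the submitters' processing notes, the authors read them with Agilent Feature Extraction 12.0.2, and the deposited scanner files hold a background-corrected processed signal in intensity units for 44397 spots, 43020 of them not controls. The authors also deposited log2 values of 18417 probes as a value table that lacks the Arntl probe used here, so it served as an alternative.

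Signals were put on the log2 scale, spots that the software had marked non-uniform or population outliers were dropped, repeated spots were averaged, and the 75th percentile of the array (an intensity of 43.7 to 244.2) was subtracted. The filter on dim probes asked for a signal well above background on 4 or more of the 5 arrays of some group, and for values on 20 or more arrays, and 23617 probes passed. Of several probes of a gene, the brightest that passed was used. Probe positions are mm9, as the files give them.

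One limma 3.58.1 fit (24 residual degrees of freedom) gave 10 comparisons, adjusted over 18726 genes. Correlations used 100000 permutations within groups. The fit was tested on simulated data with known changes. Alternatives were other scalings, normexp background correction (offset 50), the deposited values, no filter, probe averages, slide or replicate as a block, arrays with much liver RNA left out or adjusted for, and each array left out in turn. Members, lists and tests were chosen with earlier results of these data known. All 10 members are named, together with listed clock genes that passed, except 1 that is not reported here, and the 3 genes most like Dbp, Nr1d1 or Arntl. The same replicate number marks the same slide in p38DN mice only, per the file headers. The correlation of deviations of same-numbered arrays was -0.214 to 0.396 in p38DKI, -0.147 to 0.411 in p38DN and -0.127 to 0.302 in p38WT. R 4.3.3, data.table (version 1.17.8), Python 3.11.15, numpy 2.4.6, scipy 1.17.1, pandas 2.3.3 and matplotlib 3.10.9 were used.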

Additional observations from a re-analysis of the deposited data

Results flagged for a closer look

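In 48 groups of 5 arrays (8 members in 6 groups), 3 held an array whose gap to the nearest of the others, divided by the range of the group, exceeded Dixon's critical value of 0.71, which chance does in about 1 of 20 groups. All 3 were p38DKI irradiated array 2, the array highest in liver transcripts. Its level was 5.814 for Dbp, 2.966 for Cry2 and -1.43 for Per2, each above the other 4 irradiated p38DKI arrays. The part of liver RNA in these values was not tested.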

How the results depend on the processing

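The counts of members past an adjusted p of 0.05 (limma, 8 tested) depended on the processing, and where no construction of the alternative is named the cause was not tested. These counts have no share of all genes under the same alternative beside them. For the irradiation effect in p38DKI mice (4 called) there were 2 with normexp and 0 with the fixed slide block, which rests on slide 4, and 4 to 5 on leaving out 1 array. In p38DN mice (3 called) there were 0 with normexp, 1 with the deposited values, 5 without the 4 arrays highest in liver transcripts, 5 with the liver covariate and 2 to 4 on leaving out 1 array. In p38WT mice (2 called) there were 0 with array medians, 1 with normexp, 0 with slide as a fixed block, 4 with slide as a random block, 5 without the 4 arrays, 4 with the covariate, and 0 to 4 on leaving out 1 array. Averaged over genotypes (5 called) there were 2 with normexp, 3 with the fixed block and 5 to 6 on leaving out 1 array. For irradiated p38DKI against p38WT (2 called) there were 0 with array medians, no scaling, normexp, the fixed block or the covariate, 1 with quantile normalization, the deposited values, no filter or without the 4 arrays, 4 with the random block, and 1 to 3 on leaving out 1 array. For p38DN against p38WT, unirradiated (6 called), there were 3 with normexp, 2 with the deposited values, 3 with the covariate, 4 without the 4 arrays and 4 to 6 on leaving out 1 array. Irradiated (0 called), there were 2 with the percentile over probes detected on all arrays, 1 with the deposited values, 3 without the 4 arrays, 1 with the covariate and 0 to 1 on leaving out 1 array. For p38DN minus p38WT (0 called) there was 1 without the 4 arrays and 1 with the covariate. Both differences between irradiation effects, and unirradiated p38DKI against p38WT, gave 0 with any array left out.

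The 6 members whose probe passed the filter through more than 1 group were also counted, an alternative chosen after seeing the data. This gave 3 in p38DKI mice, 1 in p38WT mice, 4 averaged over genotypes, and 1 for irradiated p38DKI against p38WT. Normexp reversed 2 results of unirradiated p38DN against p38WT mice, Nr1d2 at 0.0648 and Clock at 0.45. Of the 28 pairs tested for correlation, 2 passed, 18 with array medians and 1 without the 4 arrays. With replicate number as a block, 4 members passed in p38DKI, 3 in p38DN and 3 in p38WT (Arntl added, adjusted p = 0.0458), and no other call changed. Same-numbered arrays did not all correlate above 0.1 in any genotype. Some members that had not passed did so with 1 array left out, and each of them did so under at least 1 other alternative. These were Nr1d2 (without unirradiated array 5 or irradiated array 4) and Arntl (without unirradiated array 5 or irradiated array 3) in p38WT mice, Clock in p38DKI mice (without irradiated array 5), Nr1d1 in p38DN mice (without irradiated array 1 or 5), Per2 averaged over genotypes (without p38DN irradiated array 3), Nr1d2 (without p38DKI array 1) and Clock (without p38DKI array 4 or 5) for irradiated p38DKI against p38WT, and Nr1d1 for irradiated p38DN against p38WT (without array 1 or 5 of either group). Depth on arrays is signal over background: Nr1d1, Per2 and Clock were detected on 10, 15 and 20 of 30 arrays, and Cry1 and Per3 on 0 and 1.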
